A study of Mus musculus with 18 samples.

Results

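Chrna9, Chrna10, Chrna1, Chrnb1, Ache and Rapsn, 6 genes of cholinergic signalling in cochlear hair cells, were followed through 18 RNA sequencing libraries of mouse cochlea. They were chosen by name as receptor subunits of the efferent synapse, the enzyme that breaks down acetylcholine and a receptor clustering protein, and all 6 were found among the 47729 genes of the files. Of these, 5 reached at least 1 TPM in at least 2 libraries and were tested, as were 20463 genes in all. TPM is the number of reads divided by transcript length and scaled to a fixed total in each library, so levels of different genes can be set side by side. It keeps no read depth, and counting error cannot be computed from it. Rapsn stayed below 1 TPM in every library and was not tested.

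The libraries fall into 9 groups of 2. Cells sorted at postnatal day 2 make up 3 native groups, named Atoh1_P2, Lgr5_P2 and Sox2_P2, of which the first is taken as hair cells and the other two as supporting cells. LCP, read here as Lgr5-positive cochlear progenitors although the sources used here do not spell it out, were expanded in culture and differentiated. Unsorted LCP were sampled on differentiation days 0, 2, 4 and 10 (D0, D2, D4 and D10) and sorted LCP on D0 and D10. The sources used here give neither the genotype of the sorted animals and the reporters used nor the gate and the agents applied to the cultures. The labels of all 18 samples carry 1 treatment text, with tamoxifen given to nursing mothers, Sox2-CreER; β-catenin flox(Exon3)/+ pups and β-catenin flox(Exon3)/+ littermates, which fits none of the titles and formed no group here. They also state that each sample came from 2 ears of 1 pup, also for the cultures.

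In the cochlea, efferent neurons of the brainstem release acetylcholine onto outer hair cells, and before hearing begins also onto inner hair cells. The receptor there is a pentamer of the alpha9 and alpha10 subunits, encoded by Chrna9 and Chrna10. Calcium that enters through it opens the potassium channel SK2, encoded by Kcnn2, so that the hair cell is inhibited. Chrna1 and Chrnb1 encode subunits of the acetylcholine receptor of skeletal muscle, whose fetal form also holds the gamma subunit encoded by Chrng. Ache encodes acetylcholinesterase and Rapsn encodes rapsyn, which anchors muscle receptors under the motor nerve ending.

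Chrna9, Chrna10 and Chrna1 had similar profiles over the libraries while Ache did not, so the 250 bases before the start of these 4 genes are shown, 5′ to 3′ on the strand of the gene (RefSeq, build GRCm38.p6, which is mm10). Capitals mark CAGNTG, one form of the E-box, the site of basic helix-loop-helix transcription factors, a family that holds Atoh1 and the myogenic factors. It was searched on both strands, in a window that also took in the 50 bases after the start.
Chrna9, chr5:65966874-65967123, plus strand: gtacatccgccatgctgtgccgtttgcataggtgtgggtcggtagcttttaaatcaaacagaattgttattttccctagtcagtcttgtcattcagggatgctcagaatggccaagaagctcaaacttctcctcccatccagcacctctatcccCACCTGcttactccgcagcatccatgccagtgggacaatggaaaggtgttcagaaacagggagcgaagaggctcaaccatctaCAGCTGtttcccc
Chrna10, chr7:102116714-102116963, minus strand: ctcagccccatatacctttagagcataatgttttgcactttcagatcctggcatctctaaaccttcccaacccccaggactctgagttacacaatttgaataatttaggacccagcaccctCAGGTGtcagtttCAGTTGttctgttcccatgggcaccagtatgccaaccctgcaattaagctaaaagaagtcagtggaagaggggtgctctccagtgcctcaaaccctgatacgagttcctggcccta
Chrna1, chr2:73580339-73580588, minus strand: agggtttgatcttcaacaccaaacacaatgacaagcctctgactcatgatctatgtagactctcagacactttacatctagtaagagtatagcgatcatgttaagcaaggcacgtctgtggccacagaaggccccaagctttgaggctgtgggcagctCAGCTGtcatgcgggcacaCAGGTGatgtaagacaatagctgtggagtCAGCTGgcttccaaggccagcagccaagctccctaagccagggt
Ache, chr5:137288004-137288253, plus strand: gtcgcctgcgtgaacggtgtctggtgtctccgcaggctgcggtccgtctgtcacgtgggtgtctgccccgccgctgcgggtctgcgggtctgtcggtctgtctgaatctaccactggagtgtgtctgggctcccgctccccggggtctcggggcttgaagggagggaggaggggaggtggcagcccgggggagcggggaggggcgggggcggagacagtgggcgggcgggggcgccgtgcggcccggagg

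Chrna9 and Chrna10 each had 2 matches to CAGNTG, Chrna1 had 3 and Ache had 0. Chrnb1, whose sequence is not shown, also had 2. Its profile was less like that of Chrna9, at a Pearson correlation of 0.3469 over the libraries. Other forms of the E-box were not searched, among them cacgtg, which the Ache sequence holds. Of 32851 promoters searched in the same way, 51.4% held at least 1 match to CAGNTG and 18.2% held at least 2. The N-box CCGGAA, known from muscle endplate genes, was absent from all 5 windows searched and present in 14.9% of all promoters. A match of letters describes the sequence and is not a binding site, and absence says only that these letters are not in this window. The start sites used by RefSeq for Chrna9, Chrna10, Chrnb1 and Ache lie inside the gene bounds given below, and that of Chrna1 is at the end of its bounds.

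Hair cell markers (9 genes such as Myo7a, Pou4f3 and Gfi1) summed to 432 and 982 TPM in the Atoh1 sort, to 208 to 372 TPM over the 4 supporting cell libraries, to at most 3.40 TPM in both D0 groups and to 499 and 731 TPM in sorted LCP D10. Hair cell transcripts were therefore present in the supporting cell sorts, and supporting cell markers summed to 972 TPM or more in the Atoh1 sort and to 6420 TPM or more in sorted LCP D10, so each group name denotes a sort, not a pure cell type. In sorted D10 nearly all of that sum was S100a1, a calcium-binding protein, at 6313 and 7335 TPM, only 6 of the 8 supporting cell markers reached 1 TPM, and against sorted D0 1 of 8 passed as higher and 1 as lower, with a median difference of -0.25. Sums of markers are given here and below with the lower library first, not in replicate order. All second replicates share 1 sequencing date, while the first replicates were sequenced on 2 dates.

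Chrna9 (ENSMUSG00000029205, mm10 chromosome 5, 65934921 to 65977326, plus strand), which encodes the obligatory subunit of the efferent receptor, was one of the more abundant members in native cells. It was at 312 TPM in replicate 1 and 354 TPM in replicate 2 of the Atoh1 sort, 106 and 191 TPM in the Lgr5 sort and 172 and 168 TPM in the Sox2 sort. In unsorted LCP it was at 0.477 and 0.762 TPM at D0, 2.28 and 8.20 at D2, 17.2 and 84.3 at D4, and 20.6 and 74.8 at D10. Sorted LCP had 0.185 TPM and a value listed at 0 at D0, against 161 and 101 TPM at D10. The Atoh1 sort was thus above every other library. The Sox2 sort, the Lgr5 sort and sorted LCP D10 followed and overlapped from one to the next, D4 and D10 unsorted overlapped each other below them, and D2, D0 and sorted D0 came last without overlap.

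Chrna10 (ENSMUSG00000066279, chromosome 7, 102111266 to 102116828, minus strand), the partner subunit, was at 245 and 339 TPM in the Atoh1 sort, 94.2 and 133 TPM in the Lgr5 sort and 152 and 139 TPM in the Sox2 sort. Over the unsorted course it was at 0.0802 and 0.139 TPM at D0, 0.507 and 1.66 at D2, 8.82 and 51.7 at D4, and 27.4 and 70.1 at D10. Sorted LCP had 0.111 and 0.0348 TPM at D0 and 219 and 129 TPM at D10. The Atoh1 sort again stood highest with no overlap. Sorted D10 overlapped both the Sox2 sort and the Lgr5 sort, the Lgr5 sort lay below the Sox2 sort, and both D0 groups overlapped each other near 0.

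The counted exons of Chrna10 share 1025 bases with those of Art1, an ADP-ribosyltransferase gene on the opposite strand. That is 39.0% of the exonic bases of Chrna10 and 36.5% of those of Art1. The kits used do not mark the strand, so reads in the shared stretch cannot be told apart, and Art1, which was named after its values were seen, is given beside Chrna10. Art1 was between 0.330 and 1.33 TPM in the 6 native libraries, at most 0.298 TPM at D0 and D2 of the unsorted course, 1.04 and 11.9 at D4, and 2.76 and 41.7 at D10. In sorted LCP it was at 0.119 TPM and a listed 0 at D0 and at 85.7 and 67.6 TPM at D10. In the native sorts Chrna10 thus exceeded Art1 by far, whereas at sorted D10 the levels of both genes were high. How much of the Chrna10 level in the cultures comes from the shared stretch was not tested.

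**Figure D1:**
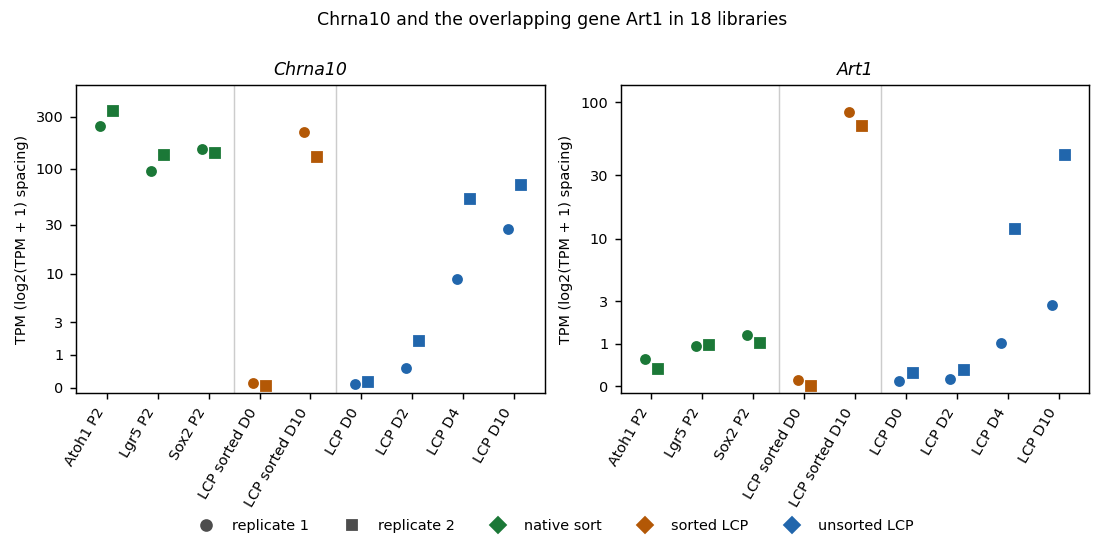
TPM of Chrna10 and of the overlapping gene Art1 in each of the 18 libraries, with log2(TPM + 1) spacing on the vertical axes and the 9 groups on the horizontal axes (circles, replicate 1, and squares, replicate 2). Chrna10 is above 94 TPM in all 6 native libraries where Art1 is at most 1.33 TPM, and both genes are high in sorted LCP D10.

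Chrna1 (ENSMUSG00000027107, chromosome 2, 73563215 to 73580338, minus strand), the ligand-binding subunit of the muscle receptor, was also highest in the Atoh1 sort, at lower levels. It was at 22.4 and 31.1 TPM in the Atoh1 sort, 7.68 and 10.4 in the Lgr5 sort and 12.6 and 13.5 in the Sox2 sort. In the unsorted course it was at 0.171 and 0.232 TPM at D0, 0.317 and 0.309 at D2, 1.77 and 8.81 at D4, and 4.17 and 7.49 at D10. After the sort it was at 0.345 and 0.133 TPM at D0 and 16.6 and 4.47 TPM at D10. The Atoh1 sort was above all other libraries, sorted D10 spread across the range of the supporting cell sorts, and the D0 and D2 groups lay together below 1 TPM.

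Chrnb1 (ENSMUSG00000041189, chromosome 11, 69784036 to 69795943, minus strand), which encodes the beta subunit of the muscle receptor, was present in every library and had the narrowest range of the 5 genes tested. It was at 32.1 and 15.9 TPM in the Atoh1 sort, 22.1 and 15.2 in the Lgr5 sort and 21.7 and 13.7 in the Sox2 sort. Unsorted LCP had 6.13 and 8.06 TPM at D0, 10.1 and 13.9 at D2, 26.8 and 18.7 at D4, and 27.2 and 12.6 at D10. Sorted LCP had 7.56 and 18.3 TPM at D0 and 5.46 and 6.50 at D10. The native sorts, D4 and D10 overlapped one another, and the lowest levels were those of sorted D10 and unsorted D0, which overlapped.

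Ache (ENSMUSG00000023328, chromosome 5, 137287519 to 137294466, plus strand) was highest in unsorted LCP at D0, where Chrna9, Chrna10 and Chrna1 were below 1 TPM, with 85.9 and 31.1 TPM. The enzyme it encodes ends cholinergic transmission. It was at 10.6 and 10.4 TPM at D2, 0.343 and 2.98 at D4, and 0.613 and 3.33 at D10. Sorted LCP had 20.3 and 2.65 TPM at D0 and 6.52 and 3.61 at D10. Among native cells it was at 4.79 and 0.102 TPM in the Atoh1 sort, 0.171 and 0.981 in the Lgr5 sort and 5.01 and 24.3 in the Sox2 sort. Unsorted D0 stood above all other libraries, and replicates of the Atoh1 sort and of sorted D0 lay far apart. The microRNA gene Mir8116 lies within Ache on the same strand and was listed at 0 to 131 TPM over the libraries, so how reads were split between these genes is uncertain.

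Rapsn (ENSMUSG00000002104, chromosome 2, 91035620 to 91045729, plus strand) ranged from 0.0548 TPM in replicate 1 of LCP D4 to 0.774 TPM in replicate 2 of the Atoh1 sort. Its group means were highest in the Atoh1 sort, at 0.732 TPM, and in sorted LCP D10, at 0.602 TPM. A gene on the opposite strand, Gm13778, overlaps it and was at 0.378 to 11.2 TPM, so levels this low cannot be ascribed to Rapsn alone.

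**Figure D2:**
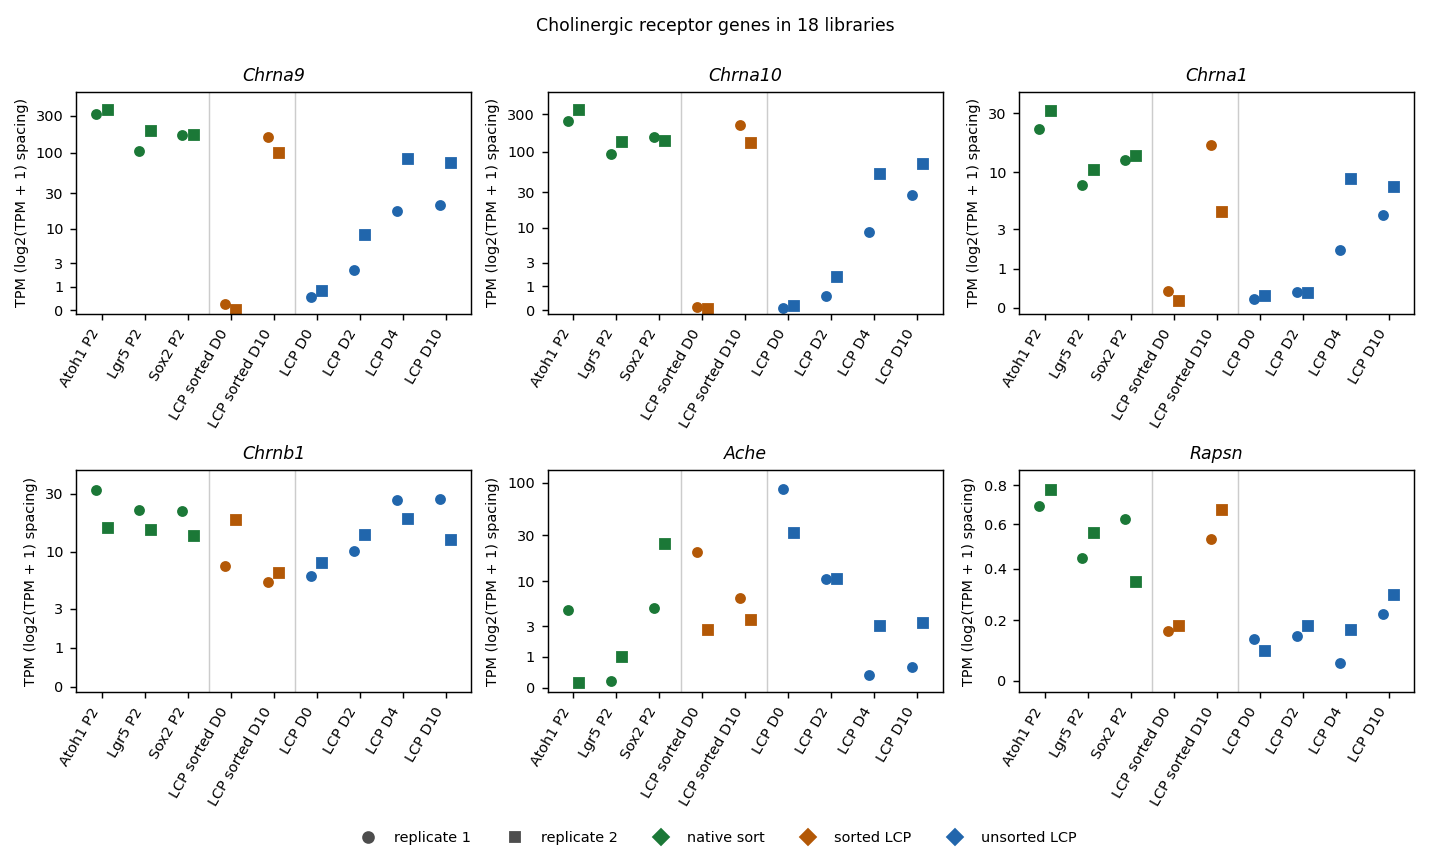
TPM of the 6 genes in each of the 18 libraries, with log2(TPM + 1) spacing on the vertical axes, which differ between panels, and the 9 groups on the horizontal axes (circles, replicate 1, and squares, replicate 2). Chrna9, Chrna10 and Chrna1 are lowest at D0 and highest in the Atoh1 sort, Ache is highest in LCP D0 at 85.9 and 31.1 TPM, and Rapsn stays below 0.8 TPM.

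The genes were next compared between native hair cells and native supporting cells, the first comparison that the design names. Chrna9 was higher in both libraries of the Atoh1 sort than in all 4 of the other sorts, and so were Chrna10 and Chrna1, but none of the differences passed the test. On the log2(TPM + 1) scale they were 1.09 (SE 0.63, adjusted p = 0.545) for Chrna9, 1.17 (SE 0.57, adjusted p = 0.453) for Chrna10 and 1.22 (SE 0.52, adjusted p = 0.375) for Chrna1. In this comparison 0 of the 5 genes and 0.821% of all genes tested passed limma's test at an adjusted p under 0.05. Of the 5 genes, 1 was at an unadjusted p under 0.05. Shares of all genes are given here and below at the adjusted threshold only, so counts at an unadjusted p have no such share beside them. Fewer hair cells in a sample and less RNA per cell cannot be told apart here or in any comparison below. Within the sequencing dates, the difference in Chrna9 was 1.20 for the first replicates and 0.98 for the second. Chrnb1 differed by 0.33 (SE 0.42) and Ache by -0.78 (SE 0.90), and the difference in Ache was 1.12 within one date and -2.68 within the other.

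Between the supporting cell sorts, the difference of the Lgr5 sort from the Sox2 sort was -0.25 for Chrna9, -0.38 for Chrna10, -0.50 for Chrna1 and 0.08 for Chrnb1, each under its standard error (0.73, 0.65, 0.60 and 0.49). Ache was lower in both Lgr5 libraries than in both Sox2 libraries, a difference of -3.02 (SE 1.04), but did not pass (adjusted p = 0.479). By limma, 0 of the 5 genes and 0.557% of all genes passed, and 1 of the 5 was at an unadjusted p under 0.05. Most glial and neuron markers were lower together with Ache in these sorts. The 6 glial markers summed, lower library first, to 237 and 532 TPM in the Lgr5 sort and to 640 and 992 TPM in the Sox2 sort. All 6 were at 1 TPM or more in some library of each of the Lgr5 and Sox2 sorts. Of these, 4 were lower in both Lgr5 libraries than in both Sox2 libraries, such as Pmp22 at 1.95 and 5.49 TPM against 95.1 and 229.8 TPM, and the median difference was -3.35 over the 6. Sox10 overlapped, and Egr2, which made up most of the sum in the Lgr5 sort, was at 471 and 168 TPM there against 216 and 57.9 TPM. The 8 neuron markers summed, lower library first, to 324 and 434 TPM in the Lgr5 sort and 380 and 503 TPM in the Sox2 sort. None of them was at 0 in both libraries of a native sort. Isl1 was the highest of them, at 345 and 142 TPM in the Lgr5 sort and 259 and 107 TPM in the Sox2 sort. All but Isl1 were lower in both Lgr5 libraries than in both Sox2 libraries. Elavl4, for example, was at 3.96 and 4.16 TPM against 30.4 and 31.2 TPM. Nefl, Nefm, Snap25 and Rbfox3 were also higher in both sorted D10 libraries than in both sorted D0 libraries, as were the summed hair cell markers. Nefl, for example, was at 156 and 84.1 TPM against 0.108 TPM and a listed 0. Tubb3, Isl1, Prph and Elavl4 were not. In unsorted D0, where Ache was highest, Tubb3, Nefl, Rbfox3, Prph and Elavl4 were below 1 TPM, while Nefm, Snap25 and Isl1 reached it. The part of the glial and neuron markers in the level of Ache was not tested.

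During differentiation of unsorted LCP, D2 differed from D0 by 1.77 (SE 0.73) for Chrna9, and both D2 libraries lay above both D0 libraries, but the adjusted p was 1. The differences in Chrna10, Chrna1, Chrnb1 and Ache were 0.85, 0.13, 0.68 and -2.20. In all, 0 of the 5 genes passed limma's test at D2, against 0.0489% of all genes, and 1 of the 5 was at an unadjusted p under 0.05. At this time point the replicates of Chrna9 and Chrna10 already differed by more than 3-fold in TPM.

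By D4, Chrna9 and Chrna10 had risen and Ache had fallen. Chrna9 was higher by 4.61 (SE 0.73, adjusted p = 0.00541) and Chrna10 by 4.36 (SE 0.65, adjusted p = 0.00428), while Ache was at -4.51 relative to D0 (SE 1.04, adjusted p = 0.0361). Chrna1 differed by 2.12 (SE 0.60, adjusted p = 0.0837) and Chrnb1 by 1.54 (SE 0.49, adjusted p = 0.124), and the libraries of D4 did not overlap those of D0 for either gene. Thus 3 of the 5 genes passed by limma, against 3.39% of all genes, and the median difference was 2.12 over the 5 genes and -0.06 over all genes tested. The call of Chrna9 was lost without replicate 1 of LCP D0 (adjusted p = 0.0513) and without replicate 2 of LCP D4 (adjusted p = 0.0567), and that of Ache without each of the 4 libraries in turn, with adjusted p from 0.0945 to 0.228, whereas Chrna1 passed without replicate 1 of LCP D4 (adjusted p = 0.0205) and with a pseudocount of 0.1 (adjusted p = 0.0188). With that pseudocount, or with no filter on low values, Ache was at adjusted p = 0.0863 or 0.0778. A fit of the 4 libraries alone called none of the 5 genes, with adjusted p of 0.144, 0.16 and 0.142 for Chrna9, Chrna10 and Ache. Within the sequencing dates Chrna9 differed by 3.63 and 5.60, Chrna10 by 3.18 and 5.53 and Ache by -6.02 and -3.01.

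At D10, Chrna9 was 4.65 above D0 (SE 0.73, adjusted p = 0.00303), Chrna10 5.34 above it (SE 0.65, adjusted p = 7.01e-04) and Chrna1 2.46 above it (SE 0.60, adjusted p = 0.0283). Ache was lower, at -4.32 (SE 1.04, adjusted p = 0.0268), and Chrnb1 differed by 1.29 (SE 0.49, adjusted p = 0.15). This made 4 of 5 genes past the threshold by limma, against 7.39% of all genes, with a median difference of 2.46 over the 5 genes and -0.08 over all. The calls of Chrna9 and Chrna10 held without any 1 library, whereas Chrna1 was lost without replicate 1 of D0 (adjusted p = 0.138), replicate 2 of D0 (adjusted p = 0.119) or replicate 2 of D10 (adjusted p = 0.159). Ache was lost without each library in turn, with adjusted p from 0.0542 to 0.188, and in the fit with sequencing date as a term Chrna1 and Ache were at adjusted p = 0.0846 and 0.0625. With no filter on low values these were 0.055 and 0.059, and with a pseudocount of 0.1 Ache was at 0.0749. A fit of the 4 libraries alone left only Chrna10 past the threshold (Chrna9 at adjusted p = 0.0615). Art1 was also above D0, by 3.44 (SE 0.94, adjusted p = 0.0475), a call that was lost without replicate 1 of D0, replicate 2 of D0 or replicate 2 of D10, with adjusted p of 0.198, 0.158 and 0.301. The second replicates share a date and gave 5.43 for Chrna9, 5.97 for Chrna10, 2.78 for Chrna1 and -2.89 for Ache, while the first replicates of D0 and D10 were sequenced on different dates and give no such value.

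Between D4 and D10 no gene passed, with differences of 0.04 for Chrna9, 0.98 for Chrna10, 0.34 for Chrna1, -0.25 for Chrnb1 and 0.19 for Ache. The 95% interval for Chrna9 reached up to 1.62, so a change of that size cannot be told from none. By limma 0 of 5 genes and 0.0147% of all genes passed, and 0 of the 5 were at an unadjusted p under 0.05. Chrna9 at 17.2 and 84.3 TPM at D4 and 20.6 and 74.8 TPM at D10 shows the gap between replicates at both times, and replicate 2 was the higher one in Chrna9, Chrna10 and Chrna1 at both times. The summed hair cell markers were at 56.6 and 201 TPM at D4 and 158 and 418 TPM at D10. These sums are listed lower library first, so they do not show which replicate was the higher one.

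In sorted LCP, Chrna9, Chrna10 and Chrna1 rose between D0 and D10. Chrna9 was 6.88 higher at D10 than at D0 (SE 0.73, adjusted p = 1.30e-04), Chrna10 7.30 higher (SE 0.65, adjusted p = 5.66e-05) and Chrna1 2.99 higher (SE 0.60, adjusted p = 0.00396). Chrnb1 differed by -0.89 (SE 0.49, adjusted p = 0.215) and Ache by -0.58 (SE 1.04, adjusted p = 0.741). In all 3 of 5 genes passed by limma, all higher at D10, where 24% of all genes passed and 13.3% were higher. The median difference was 2.99 over the 5 genes and 0.02 over all genes. Chrna1 was lost without replicate 1 of sorted D10 (adjusted p = 0.0512), the library with 16.6 TPM, and Chrna9 and Chrna10 passed in every fit without 1 library. Art1 rose with Chrna10, by 6.19 (adjusted p = 8.26e-04). Within the sequencing dates Chrna9 differed by 7.10 and 6.67, Chrna10 by 7.63 and 6.98 and Chrna1 by 3.71 and 2.27.

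**Figure D3:**
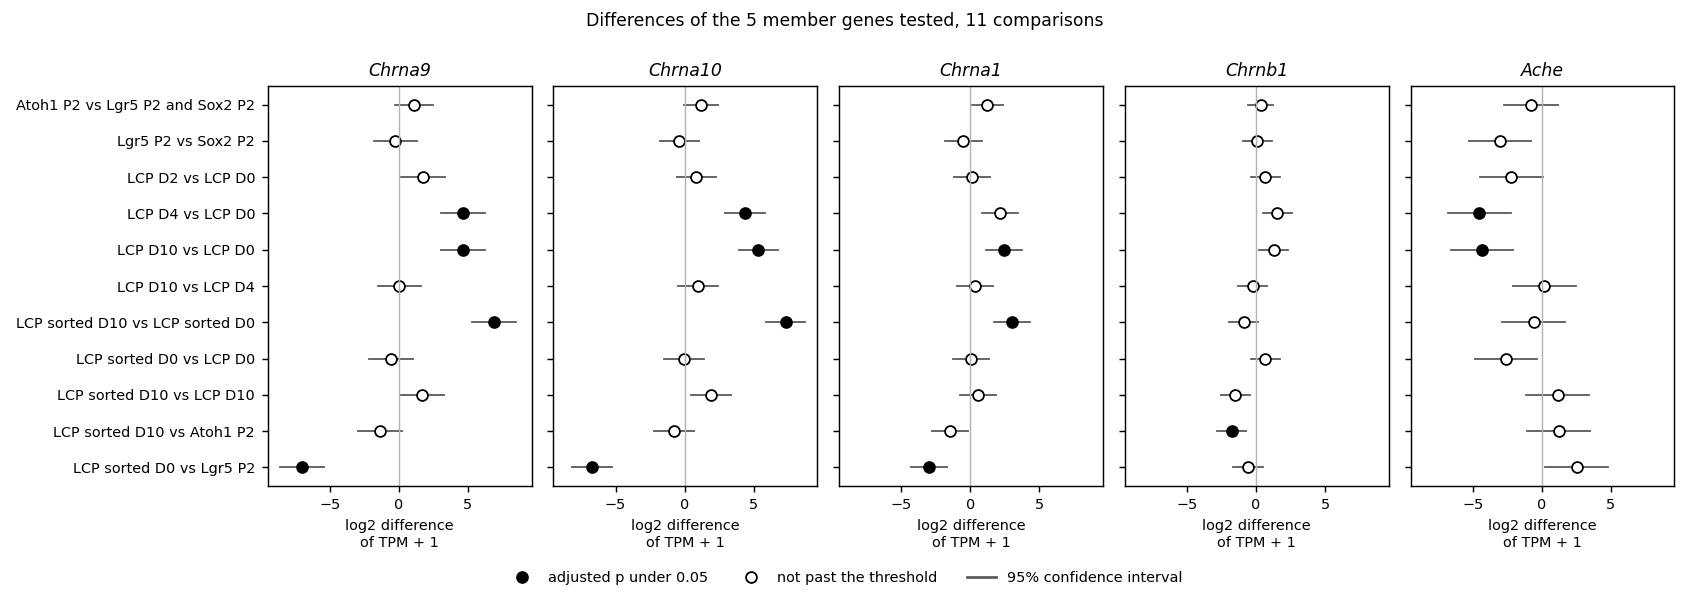
Log2 difference of TPM + 1 (horizontal axes, lines are 95% confidence intervals) for the 5 genes tested in the 11 comparisons (vertical axis), with filled points past an adjusted p of 0.05 in limma. Chrna9 and Chrna10 are filled in the same 4 rows, Chrna1 in 3 of them, Chrnb1 only in sorted LCP D10 against the Atoh1 sort and Ache only at D4 and D10 against D0.

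The sort changed none of the 5 genes past the threshold at either time. At D0 sorted LCP differed from unsorted LCP by -0.57 for Chrna9, -0.05 for Chrna10, 0.04 for Chrna1, 0.68 for Chrnb1 and -2.59 for Ache (SE 1.04, adjusted p = 0.49). By limma 0 of 5 genes and 0.0782% of all genes passed, and 1 of the 5 was at an unadjusted p under 0.05. At D10 the sorted libraries lay above the unsorted ones for Chrna9, by 1.66 (SE 0.73, adjusted p = 0.189), and for Chrna10, by 1.91 (SE 0.65, adjusted p = 0.103). They lay below them for Chrnb1, at -1.49 (SE 0.49, adjusted p = 0.088), which passed without replicate 2 of unsorted D10 (adjusted p = 0.039). Here 0 of 5 genes passed by limma, against 6.22% of all genes, and 3 of the 5 were at an unadjusted p under 0.05. With sequencing date as a term Chrna10 passed (adjusted p = 0.0496).

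The change from D0 to D10 was then compared between sorted and unsorted LCP in a single test of the difference. Chrnb1 was 1.29 higher at D10 in unsorted cells and 0.89 lower in sorted cells, neither of which passed, and the difference between these changes was -2.17 (SE 0.69, adjusted p = 0.29). For Ache the difference between the changes was 3.74 (SE 1.47, adjusted p = 0.38), for Chrna9 2.23 (SE 1.03, adjusted p = 0.455), for Chrna10 1.96 (SE 0.93, adjusted p = 0.468) and for Chrna1 0.53 (SE 0.85). By limma 0 of 5 genes passed, against 0.205% of all genes, and 2 of the 5 were at an unadjusted p under 0.05.

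Sorted LCP at D10 was also set against the Atoh1 sort, which asks how near the cultured cells come to native hair cells. Chrnb1 was lower in the culture, at 5.46 and 6.50 TPM against 32.1 and 15.9 TPM, a difference of -1.77 (SE 0.49, adjusted p = 0.036). Chrna9 differed by -1.38 (SE 0.73, adjusted p = 0.257), with a 95% interval up to 0.21, and Chrna10 by -0.77 (SE 0.65, adjusted p = 0.498), with an interval up to 0.66. For Chrna1 the difference was -1.48 (SE 0.60, adjusted p = 0.136) and for Ache 1.22 (SE 1.04, adjusted p = 0.5). Only Chrnb1 passed by limma, 1 of 5 genes, where 11.8% of all genes passed and 7.34% were lower. The median difference was -1.38 over the 5 genes and -0.11 over all genes. Chrnb1 did not pass without replicate 1 of the Atoh1 sort (adjusted p = 0.242), replicate 1 of sorted D10 (adjusted p = 0.153) or replicate 2 of sorted D10 (adjusted p = 0.131), with median-of-ratios scaling (-1.60, adjusted p = 0.0747) or in a fit of these 4 libraries alone (adjusted p = 0.0519), which in turn called Chrna9 (adjusted p = 0.0388). Within the sequencing dates the difference in Chrnb1 was -2.36 and -1.17. Art1 was higher in sorted D10 by 5.74 (adjusted p = 0.00262), and its part in the Chrna10 value of this comparison was not tested. Markers of other cell types also differed between these groups. The 5 mesenchyme markers, all at 1 TPM or more in some library of the Atoh1 sort, summed to 101 to 139 TPM there and to 0.268 to 0.659 TPM in sorted D10. The 4 erythroid markers summed to 147 to 202 TPM in the Atoh1 sort and to 0.352 to 0.452 TPM in sorted D10, with Hbb-bs and Hba-a1 listed at 0 in both libraries there. Their part in the difference of Chrnb1 was not tested.

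Against the native Lgr5 sort, sorted LCP at D0 had lower levels of the receptor genes. The differences were -7.04 for Chrna9 (SE 0.73, adjusted p = 1.25e-04), -6.72 for Chrna10 (SE 0.65, adjusted p = 9.56e-05) and -3.01 for Chrna1 (SE 0.60, adjusted p = 0.00668). Chrnb1 differed by -0.59 (SE 0.49, adjusted p = 0.542) and Ache by 2.53 (SE 1.04, adjusted p = 0.162). By limma 3 of 5 genes passed, all lower, where 11% of all genes passed and 7.11% were lower, with medians of -3.01 over the 5 genes and -0.09 over all. Chrna1 was lost without replicate 2 of the Lgr5 sort (adjusted p = 0.06). The summed hair cell markers were 208 and 372 TPM in the Lgr5 sort and 0.556 and 1.42 TPM in sorted D0, and their part in these differences was not tested. The comparisons above share groups (D0, sorted D10, sorted D0, the Lgr5 sort and the Atoh1 sort each enter more than 1), so their values for a gene are not independent of each other.

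Ratios within a library show how the receptor genes stood relative to hair cell genes, for libraries with both genes at 1 TPM or more. Chrna9 to Myo7a, the gene of an unconventional myosin of the hair bundle, was 1.82 to 3.90 in the 6 native libraries, 2.00 and 1.54 at D2, 2.22 and 3.33 at D4, 1.27 and 2.00 at D10 and 2.38 and 2.02 in sorted D10, which overlapped. Chrna9 to Gfi1, a hair cell transcription factor, was 3.55 to 4.84 in the native libraries, 1.18 and 0.973 at D2, 0.918 and 1.50 at D4, 0.255 and 0.517 at D10 and 0.660 and 0.638 in sorted D10. The ratio to Gfi1 was thus lower in all 8 culture libraries that gave one than in any native library. So was the ratio to Pou4f3, another such factor, at 4.06 to 4.77 in the native libraries against 3.21 and 1.78 in sorted D10. The ratio to Tmc1 was 15.5 to 58.8 in native libraries and at most 8.12 in cultures. Ratios to Otof and Myo15 did not separate fully. That to Otof was 2.16 to 3.83 in native libraries, 8.20 in replicate 2 of D2 and 0.578 to 1.53 in the other culture libraries. Chrna9 was at 8.20 TPM in replicate 2 of D2, so Otof was at the lower limit of 1 TPM there. The lack of separation for Otof rests on that library alone. The ratio to Myo15 was 7.27 to 14.0 in native libraries, 7.97 in replicate 2 of D4 and at most 5.75 in the other culture libraries. Chrna9 to Chrna10 was 1.04 to 1.44 in the native libraries, 4.93 in the 1 library of D2 that gave a ratio, with Chrna10 at 1.66 TPM, 1.95 and 1.63 at D4, 0.752 and 1.07 at D10 and 0.737 and 0.779 in sorted D10, where Art1 was also high. These ratios are descriptions of the libraries and were not tested.

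**Figure D4:**
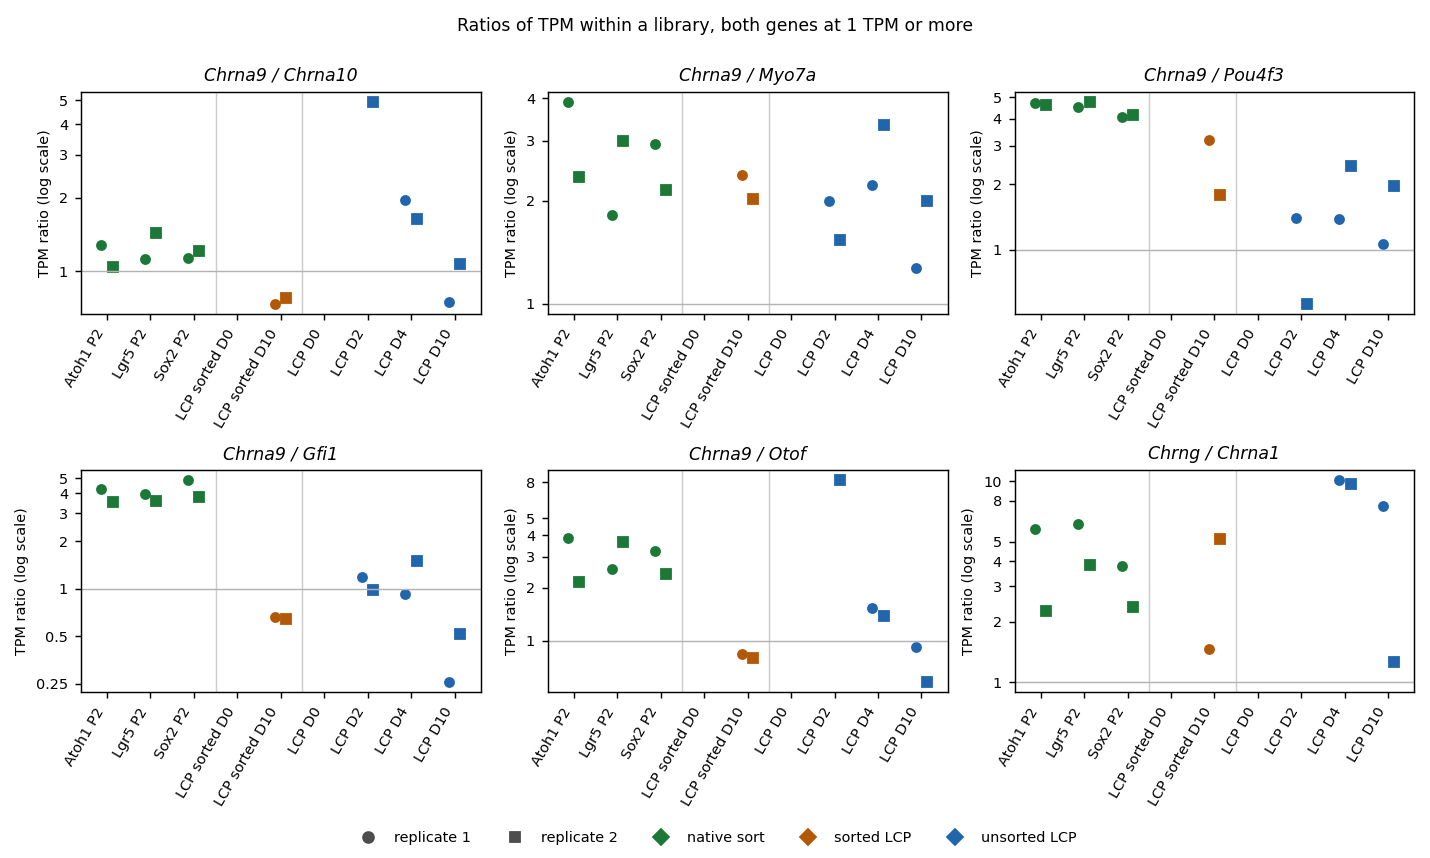
Ratios of TPM within a library (vertical axes, log scale, which differ between panels) by group (circles, replicate 1, and squares, replicate 2), drawn where both genes are at 1 TPM or more. Chrna9 to Gfi1 is 3.55 to 4.84 in native libraries and at most 1.50 in cultures, whereas Chrna9 to Myo7a overlaps between them.

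The genes with the profile most like that of each member over the 18 libraries were taken by Pearson's r of log2(TPM + 1), among genes that average at least 10 TPM in some group. For Chrna9 these were Espnl, Camk2b, Scg3, Insc and Myo7a (r from 0.9904 to 0.9909), and for Chrna10 they were Ppp1r27, Tomt, Pjvk, Dnaic2 and Kncn (0.9942 to 0.9968). Those of Chrna1 were Dgkg, Gdap1, Trappc2, Pitpna and Mslnl (0.9775 to 0.98). The values were lower for Chrnb1, with Smoc2, Trnau1ap, Mcrip1, Lxn and Prss8 (0.7952 to 0.8362), and for Ache, with Zfp286, Git2, Vdac1, Esrra and H2-Q5 (0.7704 to 0.8412). Among the members, r was 0.986 between Chrna9 and Chrna10, 0.9589 between Chrna9 and Chrna1, 0.3469 between Chrna9 and Chrnb1 and -0.5195 between Chrna9 and Ache. The 18 points come from 9 groups and share the fixed TPM total of each library, so these values describe the groups as much as the genes.

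Beyond the members, 42 genes of the cholinergic pathway were counted in 6 lists, of which 24 were tested. None passed between the native sorts, at D2, between D4 and D10 or between sorted and unsorted LCP at either time. At D4 against D0, 1 was higher and 2 were lower, at D10 2 were higher and 4 lower, and in sorted LCP at D10 against D0 5 were higher and 6 lower, with medians of -0.53, -0.83 and -0.27 over the 24 genes. Sorted D10 against the Atoh1 sort gave 3 higher and 4 lower, and sorted D0 against the Lgr5 sort gave 3 higher and 4 lower. The shares over all genes are those given above for each comparison. Of these 34 calls, 19 held in every fit without 1 library.

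Of the 12 other nicotinic subunits, 6 were tested, and Chrng, the gamma subunit of the fetal muscle receptor (chromosome 1, 87204657 to 87212694), was the most abundant. It was at 129 and 70.6 TPM in the Atoh1 sort, 46.9 and 39.9 in the Lgr5 sort, at 47.4 and 31.9 TPM in the Sox2 sort and at 24.3 and 22.9 in sorted LCP D10, against 0.273 TPM and a listed 0 in sorted D0. It rose between these sorted groups by 4.45 (SE 0.83, adjusted p = 0.00278), and its difference from the Atoh1 sort was -1.97 (adjusted p = 0.152). In unsorted LCP it was at 0.144 and 1.35 TPM at D0, 17.9 and 85.5 at D4 and 31.5 and 9.43 at D10. It passed at D4 (4.62, adjusted p = 0.0106), but not without replicate 1 of D0 (adjusted p = 0.103) or replicate 2 of D4 (adjusted p = 0.114), nor in a fit of these 4 libraries alone (adjusted p = 0.151). At D10 against D0 Chrng also passed in limma's fit of all libraries (3.49, adjusted p = 0.0259). That call did not hold in every fit without 1 library, where the difference was 2.67 to 4.31. It was also lost with no filter on low values (adjusted p = 0.0556) and in a fit of the 4 libraries alone (adjusted p = 0.096). In every native library Chrng exceeded Chrna1, by 2.27 to 6.11 times. Chrnd and Chrne, the other two subunits of muscle receptors, were at most 1.25 and 0.417 TPM in any library.

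Because Chrna1, Chrnb1, Chrng and Rapsn are muscle genes elsewhere, 12 skeletal muscle markers were read in the same libraries. Of these, 8 were below 1 TPM in all 18 libraries, among them the myogenic factors Myod1, Myog, Myf5 and Myf6 and the muscle creatine kinase Ckm. Mylpf was at 7.71 to 71.3 TPM throughout, and Acta1 reached 1 TPM in 9 libraries, with 135 TPM in replicate 1 of LCP D10 and 1.38 TPM in replicate 2. At D10 Chrna1 was at 4.17 TPM in replicate 1 against 7.49 TPM in replicate 2, and Mylpf was at 7.71 against 27.4 TPM. Chrng was at 31.5 against 9.43 TPM and Chrnb1 at 27.2 against 12.6 TPM. At D4 Acta1 was again higher in replicate 1, at 34.0 against 1.63 TPM, and Chrnb1 was at 26.8 against 18.7 TPM. Chrng and Chrna1 went the other way at D4, at 17.9 against 85.5 TPM and 1.77 against 8.81 TPM. The part of these markers in the receptor levels was not tested. The 12 markers summed to 34.1 and 72.1 TPM in the Atoh1 sort, where Chrna1 was highest, to 40.7 and 59.1 TPM in the Lgr5 sort and to 30.1 and 30.7 TPM in the Sox2 sort.

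Downstream of the receptor, Kcnn2, which encodes the SK2 channel, was at 21.5 and 38.2 TPM in the Atoh1 sort, 9.76 and 16.1 in the Lgr5 sort, 0.734 and 0.0307 in sorted LCP D0 and 5.78 and 3.98 in sorted D10. It rose in sorted culture by 2.12 (SE 0.41, adjusted p = 0.00351) and differed at D10 from the Atoh1 sort by -2.35 (SE 0.41, adjusted p = 0.00383). In unsorted LCP it was at 1.68 and 1.74 TPM at D0 and 1.59 and 2.54 at D10, a difference of 0.16 (SE 0.41). Kcnma1, which encodes the BK channel of maturing hair cells, went the other way against the native sort. It was at 0.962 and 0.784 TPM in the Atoh1 sort and at 11.5 and 4.93 TPM in sorted D10, higher by 2.20 (SE 0.41, adjusted p = 0.00515), a call lost without replicate 1 of sorted D10 (adjusted p = 0.0538). Atp2a3, a calcium pump of intracellular stores, was at 9.97 and 18.5 TPM in the Atoh1 sort against 0.935 and 0.468 TPM in sorted D10 (-3.12, SE 0.49, adjusted p = 0.00217).

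Among the genes of acetylcholine handling, Colq, which encodes the collagen tail that holds acetylcholinesterase at synapses, was at 3.81 and 6.94 TPM in the Atoh1 sort and at 0.0809 TPM and a listed 0 in sorted D10, a difference of -2.57 (SE 0.26, adjusted p = 1.21e-04). In every culture library it was below 0.1 TPM, also at D0 where Ache was highest. Chat, the enzyme that makes acetylcholine, was at most 0.113 TPM in any library, and Slc18a3, the vesicular transporter of acetylcholine, was listed at 0 in all.

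Of the 9 chaperones and Ly6 proteins, which bind nicotinic subunits or share the fold of those that do, 8 were tested. In sorted LCP at D10 against D0, 2727 of all 20463 genes tested were higher and 2184 lower. Among these 8 genes 0 were higher and 4 lower. Of these 4, Lypd6 and Lypd6b were lost without replicate 1 of sorted D0 (adjusted p = 0.231 and 0.0959) or replicate 1 of sorted D10 (0.0912 and 0.0979), and Lypd6 also without replicate 2 of sorted D10 (0.127). Tmem35a, which encodes the chaperone NACHO of neuronal nicotinic receptors, was at 7.51 and 4.88 TPM in sorted D0 and listed at 0 in both libraries of sorted D10 (-2.82, SE 0.33, adjusted p = 2.17e-04). Lypd1 went from 85.4 and 35.6 TPM to 3.62 and 4.42 TPM (-3.49, SE 0.70, adjusted p = 0.00397). Ly6e, by contrast, was high in culture at all times, at 276 and 358 TPM in sorted D10 against 66.0 and 24.3 TPM in the Atoh1 sort (2.94, SE 0.49, adjusted p = 0.00286). Of 5 muscarinic receptors, 1 was tested. Chrm3 was listed at 0 in both libraries of both D0 groups and was at 6.73 and 1.41 TPM in sorted D10, higher than sorted D0 by 2.11 (SE 0.39, adjusted p = 0.00274) and than the Atoh1 sort by 2.03 (adjusted p = 0.0066), neither of which passed in a fit of the 4 libraries alone (adjusted p = 0.0663 and 0.0814). For Tmem35a and Chrm3, with a group listed at 0, the size of the difference rests on the pseudocount.

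**Figure D5:**
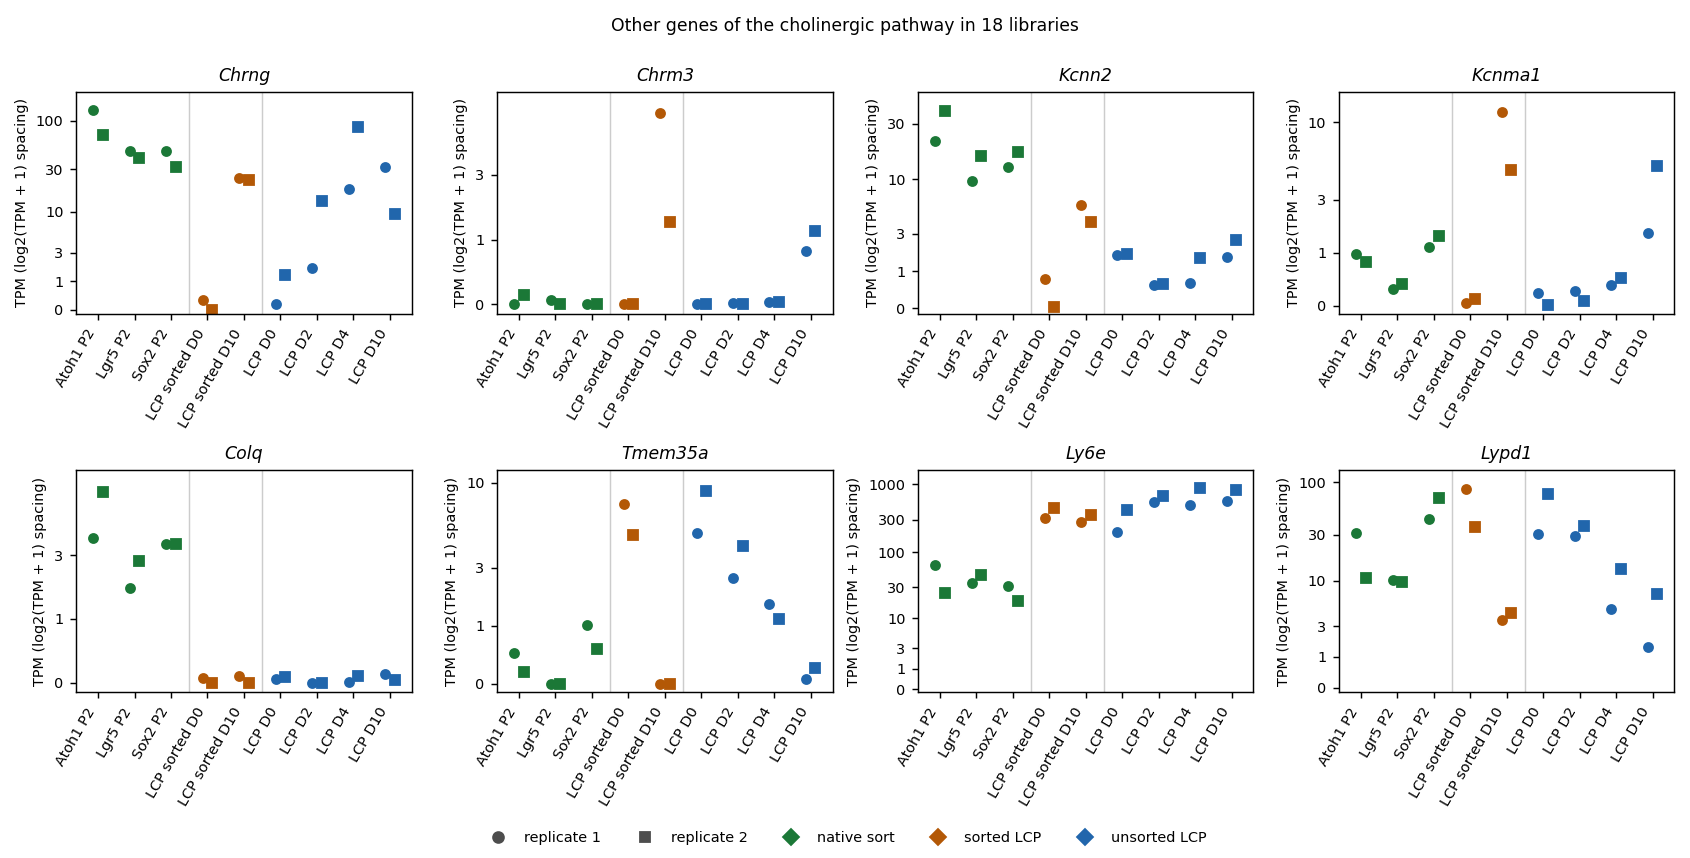
TPM of 8 other genes of the cholinergic pathway in each of the 18 libraries, with log2(TPM + 1) spacing on the vertical axes, which differ between panels, and the 9 groups on the horizontal axes (circles, replicate 1, and squares, replicate 2). Chrng and Kcnn2 are high in the native sorts and in sorted LCP D10 relative to sorted D0, Colq is below 0.1 TPM in all cultures and Ly6e is at 200 to 870 TPM in all cultures.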

How the data were processed

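Transcript abundance was measured in 18 libraries, 9 groups of 2, taken from the sample titles. Per the labels' protocols, cDNA was made from 2.5 ng of RNA with a SMARTer V4 kit, sheared, and built into libraries with a ThruPLEX kit for single-end reads of 75 bp. The deposited files hold TPM per gene, which the authors scaled to a fixed total per library. Per the submitters' processing notes, the tools include STAR, Salmon, FastQC and DESeq2 and the build is mm10, with no version or role stated. No source used here names the annotation behind the values, and coordinates are from GENCODE M21 on mm10. Values keep no depth, so counting error is unknown.

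Genes that reached 1 TPM in 2 or more libraries were tested on log2(TPM + 1), a scale that understates the change of low genes, with limma 3.58.1 (R 4.3.3, trend, 1 fit of all libraries with 9 residual and 2.8 prior degrees of freedom). P-values were adjusted by Benjamini-Hochberg per comparison over 20463 genes, with a threshold of 0.05. Tables were built in Python 3.11.15 with scipy 1.17.1, numpy 2.4.6 and pandas 2.3.3, and the fit was tested on simulated data. Beside the 11 comparisons, the difference between the changes in sorted and unsorted LCP was tested, added after seeing the data. The cultures are not said to be independent, so p-values measure only the spread between these libraries, which may be technical.

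The 6 genes, the pathway lists, the cell type markers and the rules for naming genes were chosen with earlier results of these data known. Named pathway genes passed in a comparison, reached a group mean of 5 TPM or are absent markers of the pathway (Chrnd, Chrne, Chat and Slc18a3, named after their values were seen). The genes of like profile are the 5 with the highest r, leaving out genes without a standard name and ribosomal protein genes. Alternatives were a pseudocount of 0.1, no filter, a filter of 5 TPM, median-of-ratios scaling, a replicate block, sequencing date as a term, no trend, the groups compared alone and each library left out in turn. Replicate numbers mark a shared sequencing date except in D10 against D0, D10 against D4 and sorted against unsorted D0, and deviations of same-numbered libraries correlated at r = -0.019 (sorted against unsorted D10) to 0.483 (D2 and D0).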

Additional observations from a re-analysis of the deposited data

How the results depend on the processing

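The number of the 5 genes past the threshold kept its value or stayed within 1.5 times of it under a pseudocount of 0.1, a filter of 5 TPM and no trend. It moved in D4 against D0 from 3 to 0 with the groups compared alone, in D10 against D0 from 4 to 2 with no filter, to 2 with sequencing date as a term and to 1 with the groups compared alone, in sorted against unsorted D10 from 0 to 1 with sequencing date as a term, and in sorted D10 against the Atoh1 sort from 1 to 0 with median-of-ratios scaling. Leaving out each library gave 1 to 3 in D4 against D0, 2 to 3 in D10 against D0, 2 to 3 in sorted D10 against D0, 0 to 1 in sorted against unsorted D10, 0 to 1 in sorted D10 against the Atoh1 sort, 2 to 3 in sorted D0 against the Lgr5 sort and 0 to 0 elsewhere. With the replicate number as a block, the counts were 3 at D4, 4 at D10, 3 in sorted LCP, 1 against the Atoh1 sort, 3 against the Lgr5 sort and 0 in the rest, and the block changed no call of a member. The cause of these shifts was not tested, except that the fit of the groups alone has fewer libraries and so fewer degrees of freedom.

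Of 1187 values of single genes under alternatives, 1063 kept direction and side of the threshold, 98 kept direction and were no longer past it, 5 came past it and 21 reversed, all of them not past the threshold in the fit of all libraries. In D10 against D4, sequencing date as a term gave -0.47 for Chrna9, and leaving out 1 library gave -1.07 to 1.15 for Chrna9, -0.23 to 2.20 for Chrna10, -0.57 to 1.26 for Chrna1, -0.78 to 0.27 for Chrnb1 and -0.59 to 0.98 for Ache. In the native sorts, single libraries turned Chrnb1 (-0.15 to 0.82) and Ache (-1.98 to 0.42) in the Atoh1 comparison and Chrna9 (-0.67 to 0.17) and Chrnb1 (-0.23 to 0.40) between the supporting cell sorts. They also turned Ache in sorted LCP (-1.85 to 0.69), Chrna10 (-0.10 to 0.00) and Chrna1 (-0.08 to 0.16) in sorted against unsorted D0, and Chrna1 in sorted against unsorted D10 (-0.28 to 1.41) and in the difference between changes (-0.32 to 1.37). Sequencing date as a term gave -0.30 for Chrna1 in sorted against unsorted D0, and setting sorted D10 against the mean of all 3 native sorts, added after seeing the data, gave 0.01 for Chrna10.

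With median-of-ratios scaling the median of all genes shifted by 0.109 in sorted D10 against the Atoh1 sort, 0.11 in sorted against unsorted D0 and -0.155 in the difference between changes. Over all alternatives the number of genes called among all tested ranged from 0 to 1148 for D4 against D0 (693 in the fit of all libraries), 161 to 2009 for D10 against D0 (1512), 2238 to 6252 for sorted LCP (4911), 794 to 3679 against the Atoh1 sort (2424), 971 to 2932 against the Lgr5 sort (2242), 13 to 352 for the Atoh1 sort against supporting cells (168), 0 to 232 between the supporting cell sorts (114), 0 to 22 at D2 (10), 0 to 40 for D10 against D4 (3), 0 to 176 for sorted against unsorted D0 (16), 0 to 2674 at D10 (1273) and 0 to 354 for the difference between changes (42). The fixed TPM total and 2 libraries a group limit the precision of every value.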
